A study of Mus musculus with 11 samples.

Results

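The hypothalamus of male control offspring was profiled at postnatal day 21 in 5 samples, out of 11 samples in the whole series. These control animals, called CO, were C57BL/6N mice born to dams that were fed standard chow after weaning, until mating and through pregnancy and lactation. The other 6 samples came from male offspring of the same strain and age whose dams received a high-fat diet (HFD), and they entered here only for the spread of single genes. All 5 CO samples, which carry a short form of standard diet in their titles, were used, and no level was compared between the diets. The tissue was a block behind the optic chiasm, bounded by landmarks at its sides and top, so it holds many nuclei and can hold neighbouring tissue. Total RNA of each block was labelled with Cy3 and hybridised to 1-colour Agilent mouse arrays.

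The hypothalamus is the part of the brain that governs feeding, energy use, body temperature, water balance and the pituitary. Its neurons are small, intermingled groups that each make a signature peptide, such as oxytocin, vasopressin, orexin, melanin-concentrating hormone, pro-opiomelanocortin or agouti-related peptide. The striatum lies above and beside it and is built mainly of medium spiny neurons, which carry dopamine and adenosine receptors and the signalling proteins that act behind them. The cortex and the thalamus are further neighbours.

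Signal is given as log2 of the processed spot intensity minus the 75th percentile of the mouse probes on the same array, so that 0 is the 75th percentile and each unit is a doubling. Each gene was represented by its brightest probe on the CO arrays. Of 19987 genes named on the array, 16975 (84.9%) were well above background on all 5 CO arrays and are called measured, while 1553 were not well above background on any. Of the measured genes, 6750 (39.8%) had a mean at or above 0 and are called bright. Probe signal also depends on how well the probe itself binds. Among 4473 genes with 2 or more measured probes, the brightest and the dimmest probe of a gene differed by a median of 2.25 log2 units (4.74-fold), so ranks below order probe signals and not transcript numbers.

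The 5 arrays were alike over all measured genes, with correlations between pairs of 0.990 to 0.997. Replicate 1 was hybridised on 1 slide and replicates 2 to 5 on another. No mouse spot was saturated. Replicate 4 gave the lowest value for 41.9% of the bright genes and replicate 5 the highest value for 30.3%, although the median deviation of the bright genes was only -0.07 in replicate 4 and 0.04 in replicate 5. Spike-in RNAs, which were added in known amounts, had a median standard deviation (SD) of 0.11 between arrays. Bright mouse probes printed as 10 replicate spots had a median SD of 0.05 among the spots of an array and of 0.11 between arrays.

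Measured signal ran from 7.58 down to -8.32, with a median of -0.94, and the 25 genes with the brightest probes lay at 6.85 or above. They held genes of energy metabolism, blood, peptide processing and the cytoskeleton. The alpha-globin gene Hba-a2 stood at 7.25 ± 0.12 (SD, n = 5). The respiratory chain subunit Cox6a1 reached 7.19 ± 0.17, and the glycolytic aldolases Aldoc and Aldoa reached 7.18 ± 0.23 and 7.01 ± 0.15. Cpe, the carboxypeptidase that trims neuropeptide precursors, stood at 7.14 ± 0.19, with other probes at 7.01 and 4.32. Tuba1b (7.0), a tubulin, the prolyl isomerase Ppia (6.99), the ubiquitin gene Ubb (6.99), Gapdh (6.85) and Sparc (6.85), which encodes a matrix protein, were also in the 25, beside the small RNA gene Rn4.5s (7.25), Exosc2 (7.29), Medag (7.06) and the gene model Gm12070 (6.85). The dimmest other probes of Gapdh, Sparc and Medag lay 4.24, 3.45 and 3.05 log2 units below the brightest.

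**Figure D1:**
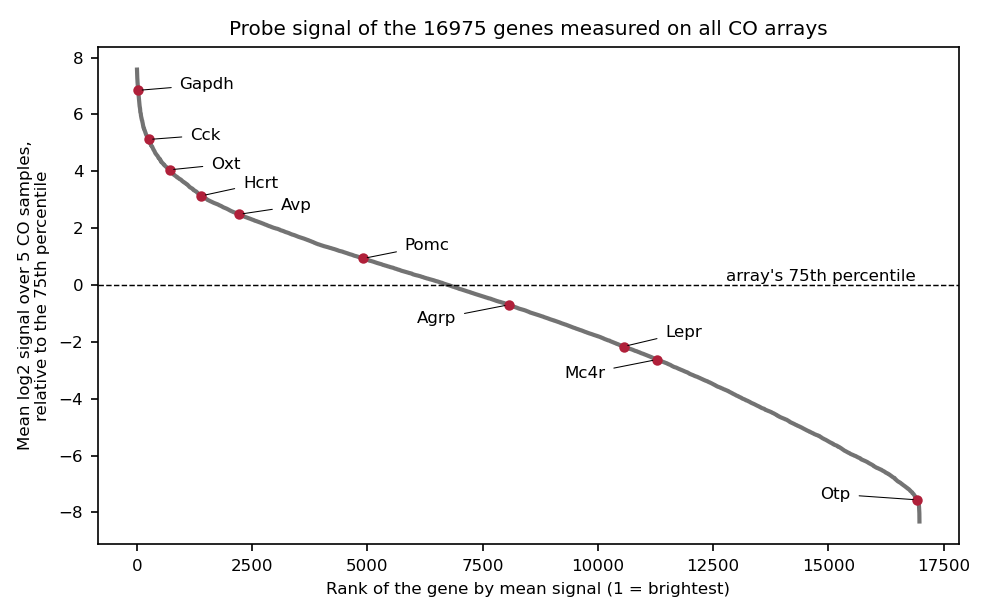
Mean log2 signal of each measured gene over the 5 CO samples (y axis, relative to the 75th percentile of the array) against its rank (x axis, 1 is the brightest). The dashed line marks the 75th percentile, and the named points run from Gapdh at 6.85 through Oxt at 4.05 and Pomc at 0.93 to Lepr at -2.16 and Otp at -7.56.

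The remaining 10 of the 25 brightest genes had probes far apart. The brightest probe named for F10, coagulation factor X, gave 7.58 ± 0.11, and the other F10 probe gave -6.62, which was 14.2 log2 units lower. For Elk1, a transcription factor, the probes gave 7.51 and -4.23. For Slc10a1, a bile acid transporter, they gave 7.51 and -6.20. Kctd14, Ttc38, Synrg, 2610028H24Rik, Med16, Ndor1 and Milr1, for which a second probe at 5.90 lay closer, completed this set, and in all 10 the dimmest measured probe lay between 6.39 and 14.2 log2 units below the brightest. Over all genes with 2 or more measured probes, 14.2% had probes more than 5 log2 units apart. For these 10 genes the arrays therefore gave no single level.

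Genes with companion probes at a like level formed a different top. Among the 2042 genes with 2 or more measured probes that all lay within 2 log2 units, the highest were Tuba1b (7.0), Ubb (6.99), Gm12070 (6.85), the constitutive chaperone gene Hspa8 (6.53) and Tpt1 (6.48), which encodes a translationally controlled protein. These 5 were taken by that rule, which was chosen after the values were seen.

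Genes of basic cell functions lay near the top as groups. All 37 ribosomal protein genes with a named probe were bright, at a median of 5.25, and ranged from Rps19 at 1.48 to Rps14 at 6.63. All 26 genes of mitochondrial respiration were bright, at a median of 5.15, with Atp5b, the beta subunit of ATP synthase, at 6.42 ± 0.22. All 15 glycolytic genes were bright at a median of 5.17, and so were all 16 cytoskeletal genes at 4.82. The median over all measured genes was -0.94. Of the 37 ribosomal protein genes, 27 were lowest in replicate 4, where 41.9% of all bright genes were lowest.

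Among the cell type marker lists, myelin and neurons had the highest median probe signals. All 12 genes of myelin and mature oligodendrocytes were measured and 10 were bright, at a median of 4.30, among them the membrane protein Mal (6.73 ± 0.15), Mobp (5.97 ± 0.18) and Mag (5.87 ± 0.10). All 12 pan-neuronal genes were bright, at a median of 4.28, among them Thy1 (5.80 ± 0.11) and the vesicle fusion protein Snap25 (5.02 ± 0.10). Of 20 genes of transmitter release, 19 were measured and 15 were bright, with Cplx2, a complexin that clamps vesicle fusion, at 6.06 ± 0.33 and the vesicle GTPase Rab3a at 5.82 ± 0.10. Astrocyte genes had a median of 3.06 with 12 of 14 bright, led by Apoe (6.76 ± 0.12), which carries lipids, and the calcium-binding S100b (4.82 ± 0.10). Microglial genes had a median of 1.00 with 12 of 15 bright, from P2ry12 at -1.44 to Siglech at 5.78.

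Markers of vessels, ventricles and blood were present as well. Oligodendrocyte precursor genes had a median of 0.86, with Gpr17, a receptor of differentiating precursors, at 5.59 ± 0.11. Endothelial and pericyte genes had a median of 0.15, led by the glucose transporter Slc2a1 (3.05 ± 0.08) and the tight junction protein Cldn5 (2.89 ± 0.09). Ependymal and tanycyte genes had a median of -0.22, and Scn7a alone of that list failed the background flag on every array. The choroid plexus markers Ttr, which carries thyroid hormone, and Enpp2 reached 5.54 ± 0.24 and 5.07 ± 0.22. Haemoglobin genes were bright in every sample, with Hba-a1 at 6.26 ± 0.15. Among pituitary markers only 9 of 14 were measured. Growth hormone (Gh) gave -9.40, -7.20, -6.78, -8.15 and -4.81 in replicates 1 to 5, and prolactin (Prl) gave -8.05, -7.89, -7.41, -8.06 and -5.10. Both were highest in replicate 5 and close to the bottom of the measured scale in the others.

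**Figure D2:**
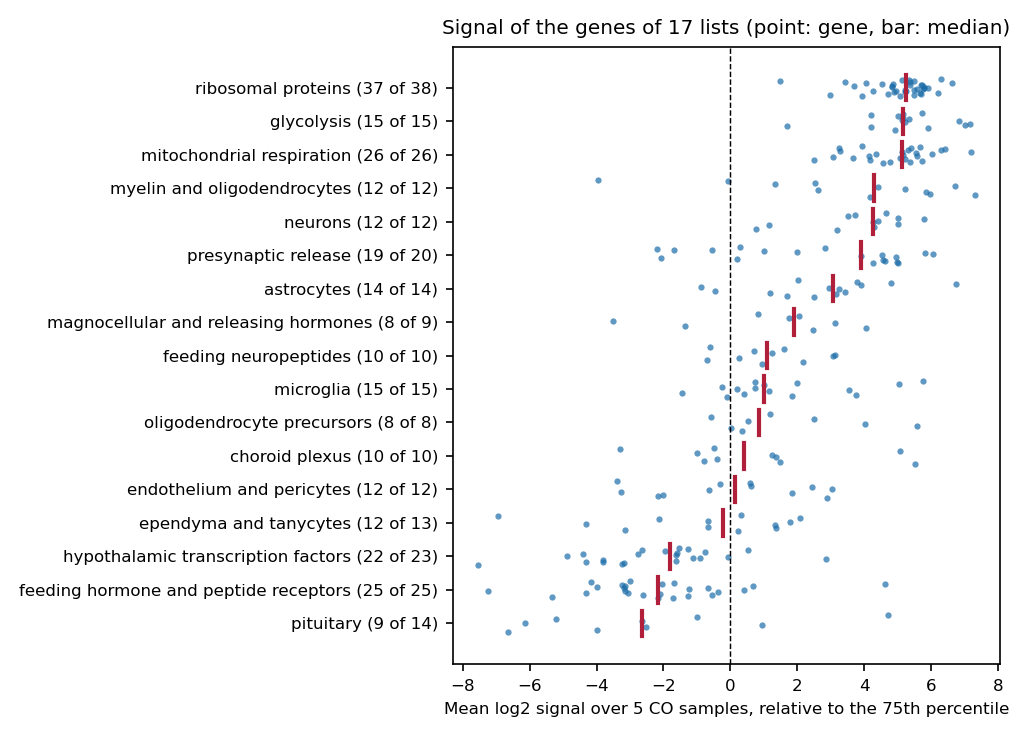
Mean log2 signal over the 5 CO samples (x axis, relative to the 75th percentile of the array, dashed line) for the measured genes of 17 lists, with 1 point per gene, the median as a bar and the number of measured genes of all genes in brackets. The medians run from 5.25 for ribosomal proteins to -2.63 for pituitary markers, with feeding peptides at 1.10 and their receptors at -2.16.

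Most of the listed peptides that define hypothalamic cell groups were measured in all 5 samples. Oxytocin (Oxt), which acts in birth, lactation and social behaviour, gave 3.94, 4.28, 4.11, 4.09 and 3.85 in replicates 1 to 5. Vasopressin (Avp), which conserves water, gave 2.40, 2.67, 2.49, 2.64 and 2.24. Orexin (Hcrt), which promotes wakefulness and feeding, gave 3.08, 3.22, 3.37, 3.14 and 2.89. For these 3 peptides replicate 5 was the lowest sample, by at most 0.49 from the highest. Melanin-concentrating hormone (Pmch), another peptide of the lateral hypothalamus, followed the same pattern with 3.02, 3.08, 3.32, 3.22 and 2.68. As probes of a gene can differ, these levels rank the samples for each peptide and not the peptides among themselves.

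The arcuate peptides differed among themselves in their spread. Pomc, the precursor of the satiety peptide alpha-MSH, gave 0.82, 0.82, 0.74, 0.80 and 1.50, so that replicate 5 stood above 4 samples that lay close together. Pomc is also in the pituitary list. In that list Gh and Prl were highest in replicate 5 too, while Lhb and Cga were lowest there. Whether pituitary tissue had a part in the Pomc value was not tested. Agrp, which opposes alpha-MSH at its receptor, gave -0.56, -0.58, -0.83, -0.69 and -0.81. Npy, which drives feeding and is also made by interneurons outside the hypothalamus, gave 0.47, 0.60, -0.35, -0.33 and 0.86. Npy had the largest SD of the 10 feeding peptides (0.55), and Agrp, made by the same arcuate neurons, had the smallest (0.13). Cartpt stood at 2.16 ± 0.14, Gal at 1.26 ± 0.18, Trh at 1.61 ± 0.23 and Crh at -0.60 ± 0.30. In all, 8 of 10 feeding peptides were bright.

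Among the magnocellular and releasing hormones 6 of 9 were bright. Somatostatin (Sst) stood at 3.13 ± 0.23, tyrosine hydroxylase (Th), the first enzyme of dopamine synthesis, at 2.04 ± 0.15, and Tac2, a tachykinin of the arcuate nucleus, at 1.76 ± 0.28. Kiss1 was far lower at -3.52 ± 0.13, and gonadotropin-releasing hormone (Gnrh1) was well above background on only 2 of the 5 arrays. The granin family and other secretory proteins gave some of the brightest peptide-related signals, with Pcsk1n, an inhibitor of prohormone cleavage, at 5.45 ± 0.11, Cck at 5.12 ± 0.25, Chgb at 4.97 ± 0.17 and Vgf at 4.89 ± 0.11. Qrfp and Npw were not well above background on all arrays, in the case of Npw with the spot of replicate 4 left out as an outlier.

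The receptors on which these peptides and hormones act had dimmer probes. All 25 were measured, but only Oprm1 (4.64 ± 0.11), Sstr1 (0.68 ± 0.10) and Crhr1 (0.40 ± 0.23) were bright. The leptin receptor (Lepr) gave -2.65, -2.09, -2.29, -2.06 and -1.73, with replicate 1 lowest and replicate 5 highest. The insulin receptor (Insr) gave -1.66, -1.88, -1.55, -1.49 and -2.02, so replicate 5 was here the lowest. The melanocortin receptors Mc3r and Mc4r stood at -1.27 ± 0.08 and -2.62 ± 0.30.

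Transcription factors that pattern the hypothalamus also had mostly dim probes, and not every probe was well above background. Of 23, 22 were measured but only 2 were bright, among them Lhx6 (2.88 ± 0.25), which also occurs in forebrain interneurons. Nr5a1, the marker of the ventromedial nucleus, stood at -1.63 ± 0.14 and Nkx2-1 at -3.18 ± 0.32. Otp was near the floor at -7.56 ± 0.36, and Sim1, the marker of the paraventricular nucleus, failed the background flag on every array. Lhx8, a factor of basal forebrain cholinergic neurons, had the largest SD of the list, with -0.43, -0.59, -1.34, -2.19 and -0.99 in replicates 1 to 5.

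The neurotrophin genes, whose products support the growth and survival of neurons, were dim and their receptors partly bright. Ntrk2, the receptor of brain-derived neurotrophic factor, stood at 3.77 ± 0.08 and Ntrk3 at 2.04 ± 0.08. Bdnf gave -1.69, -2.09, -1.17, -1.05 and -1.40, with its lowest value in replicate 2. Ntf3 stood at -2.07 ± 0.35, Cntf at -1.69 ± 0.26 and Ntf5 at -5.42 ± 0.31. Gdnf gave -2.57, -2.19, -2.91, -3.68 and -2.97, so its samples spanned over 1 log2 unit. None of the 10 genes of this list both was bright and had an SD above 0.5.

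Most bright genes varied little between the 5 animals, and a small set varied a great deal. The median SD of a bright gene was 0.12 and the 95th percentile was 0.32, while 2225 bright genes (33.0%) had an SD under 0.1. The steadiest, Mfsd14a, Coq7, Tubb4a, Tab1, Serf1, Lrrfip1, Vtn, Ncs1, Zyx and Smarcal1, had SDs of 0.014 to 0.019, which is below the median SD of replicate spots within an array. At the other end, 76 of 6750 bright genes (1.13%) had an SD above 0.5 and 6 had an SD above 1. These genes were chosen on these values, so their spread is described and not tested. Among common qPCR reference genes, Gapdh had an SD of 0.21, Actb of 0.20, Hprt of 0.14 and Gusb, the dimmest, of 0.07.

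**Figure D3:**
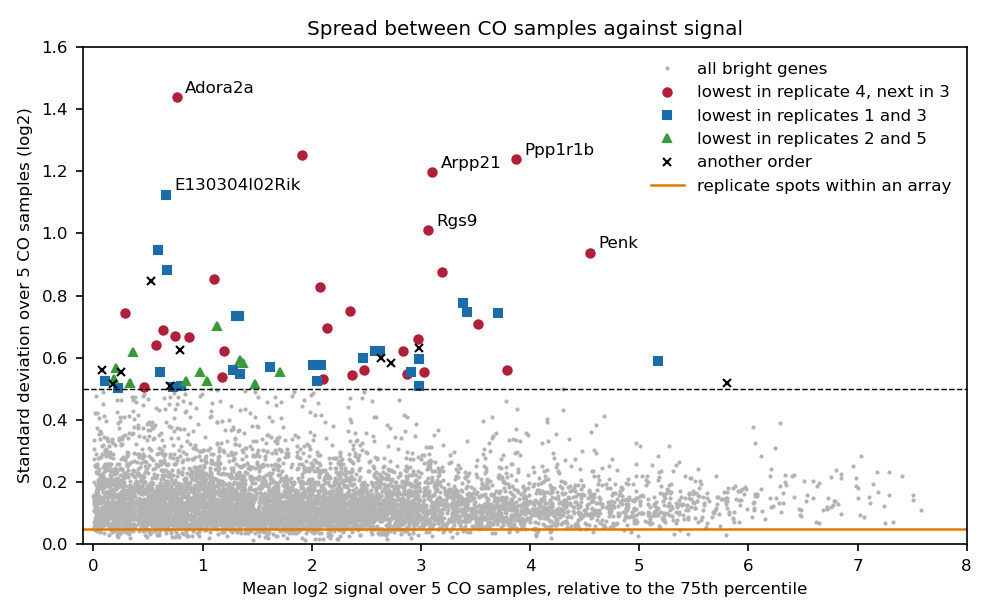
SD over the 5 CO samples (y axis, log2) against mean log2 signal (x axis, relative to the 75th percentile) for the 6750 bright genes. Coloured symbols mark the 76 genes above the dashed line at 0.5, by the order of their samples, and the solid line at 0.05 is the median SD of replicate spots within an array.

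Genes of striatal medium spiny neurons led the spread. Adora2a, an adenosine receptor of striatopallidal neurons, gave 1.79, 2.02, 0.20, -1.48 and 1.30 in replicates 1 to 5, an 11.3-fold range. Ppp1r1b (DARPP-32), the phosphatase inhibitor that integrates dopamine signals, gave 4.74, 5.02, 3.26, 2.00 and 4.32. Both were lowest in replicate 4, next lowest in replicate 3 and highest in replicate 2. Without replicate 4 their SDs of 1.44 and 1.24 were 0.81 and 0.77. In bulk tissue, fewer cells of a type and less RNA per cell cannot be told apart.

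Replicate 4 was lowest and replicate 3 next in 15 of the 25 most variable genes, whichever sample was highest. Penk, the enkephalin precursor, gave 5.07, 5.52, 3.91, 3.25 and 5.00. Rgs9, which shortens dopamine receptor signalling, gave 3.84, 3.98, 2.60, 1.54 and 3.36. A second Rgs9 probe gave 3.70, 3.91, 2.42, 1.40 and 3.21, the same order at nearly the same level, whereas the remaining probe, at -3.99, did not follow. For Rarb, a retinoic acid receptor, both probes had their lowest value in replicate 4, with SDs of 0.74 and 0.76. For Arpp21, a regulated phosphoprotein of these neurons, the brightest probe gave 3.98, 4.16, 2.65, 1.24 and 3.49, while the other probes at -0.57 and -2.60 had SDs of 0.12 and 0.07. Gng7, the G protein subunit that couples these receptors to cyclase, gave 3.79, 4.02, 2.69, 1.90 and 3.55.

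Egr4, Crym, Kcnj4, Scn4b, Kcnh3, Syndig1l and Tiam2 also belonged to the 15. Egr4, an activity-regulated transcription factor, gave 1.69, 1.91, 0.67, -0.18 and 1.40, and Kcnj4, an inward rectifier potassium channel, gave 2.89, 2.82, 2.06, 1.16 and 2.84. Among all 76 variable genes, replicate 4 was lowest in 32 (42.1%), nearly the same share as the 41.9% of all bright genes. In 28 of the 76 (36.8%) replicate 4 was lowest and replicate 3 next, against 13.4% of all bright genes. Others in the set were Bcl11b, a transcription factor of medium spiny neurons, the striatal GTPase Rasd2, Meis2, and Adcy5 and Pde1b, which make and break down cyclic AMP or GMP. Bcl11b, Rasd2 and Meis2, with SDs of 0.67, 0.66 and 0.64, lay just outside the 25, whose last member Tiam2 had an SD of 0.67.

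Upstream sequence is shown for Rgs9, Egr4 and Kcnj4, the most variable genes of this shared order with a single promoter entry in the RefSeq table (GRCm38.p6). Each line gives the 250 bases before the transcription start, 5′ to 3′ on the strand of the gene. They lie at chr11:109298182-109298431, chr6:85513590-85513839 and chr15:79505242-79505491, all on the minus strand. Capitals mark matches on either strand to any of several motifs. The first is the TATA box, spelled TATAAA, which places the start of transcription. The next is the CCAAT box, named by its letters. The short cAMP response element is spelled TGACG, and the GC box, bound by Sp factors, is spelled GGGCGG.
Rgs9: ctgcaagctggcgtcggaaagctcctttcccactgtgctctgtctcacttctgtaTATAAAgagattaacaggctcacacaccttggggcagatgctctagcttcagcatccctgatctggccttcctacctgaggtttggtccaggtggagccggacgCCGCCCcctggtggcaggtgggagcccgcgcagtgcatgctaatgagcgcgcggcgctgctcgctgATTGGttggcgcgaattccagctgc
Egr4: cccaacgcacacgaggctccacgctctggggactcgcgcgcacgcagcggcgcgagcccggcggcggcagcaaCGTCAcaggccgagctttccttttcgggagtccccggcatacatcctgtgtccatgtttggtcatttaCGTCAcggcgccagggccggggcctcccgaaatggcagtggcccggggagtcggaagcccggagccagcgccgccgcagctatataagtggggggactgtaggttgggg
Kcnj4: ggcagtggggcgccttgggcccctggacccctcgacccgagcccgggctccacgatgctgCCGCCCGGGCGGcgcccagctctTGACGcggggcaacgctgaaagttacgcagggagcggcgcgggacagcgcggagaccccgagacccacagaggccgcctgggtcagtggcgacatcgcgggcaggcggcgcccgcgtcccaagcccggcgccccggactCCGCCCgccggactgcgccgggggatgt
Rgs9 held 1 TATA box, 1 CCAAT box and 1 GC box. Egr4 held 2 short cAMP response elements and none of the other letters searched, and Kcnj4 held 1 short element and 3 GC boxes. The full cAMP response element (TGACGTCA), which contains the short element, and the EGR site (GCGGGGGCG) were in none of the 3 windows. Of 27025 promoters in the table, 13.0% held the TATA box, 34.5% the CCAAT box, 17.9% the short element, 32.9% the GC box, 1.62% the full element and 2.56% the EGR site. The windows had 59.6%, 68% and 77.2% G and C, against a median of 52% over the table. None of these motifs was in all 3 windows, and a match is a description of letters and not a binding site.

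The whole striatal list moved in this order. All 12 genes were measured, 8 were bright and 7 of those had an SD above 0.5. The mean deviation of the list from the CO means was 0.60 in replicate 1, 0.91 in replicate 2, -0.61 in replicate 3, -1.29 in replicate 4 and 0.39 in replicate 5. Of the 12 genes, 11 were lowest in replicate 4 and 11 were highest in replicate 2. Over all bright genes, 41.9% were lowest in replicate 4 and 20.8% were highest in replicate 2, and no such share was taken over dimmer genes. The dopamine receptor Drd1, with a mean below 0, gave -0.43, 0.14, -1.97, -2.84 and -0.73, and Drd2 gave -1.72, -1.28, -2.52, -2.77 and -1.72. The list had a range of 2.20 between samples, against medians over all measured genes that lay between -0.02 and 0.03. It was still 1.53 without replicate 4, and 2.20 within the 4 samples of 1 slide. Since Adora2a and others of the list are among the genes with the largest spread, the list is no independent evidence of that spread.

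**Figure D4:**
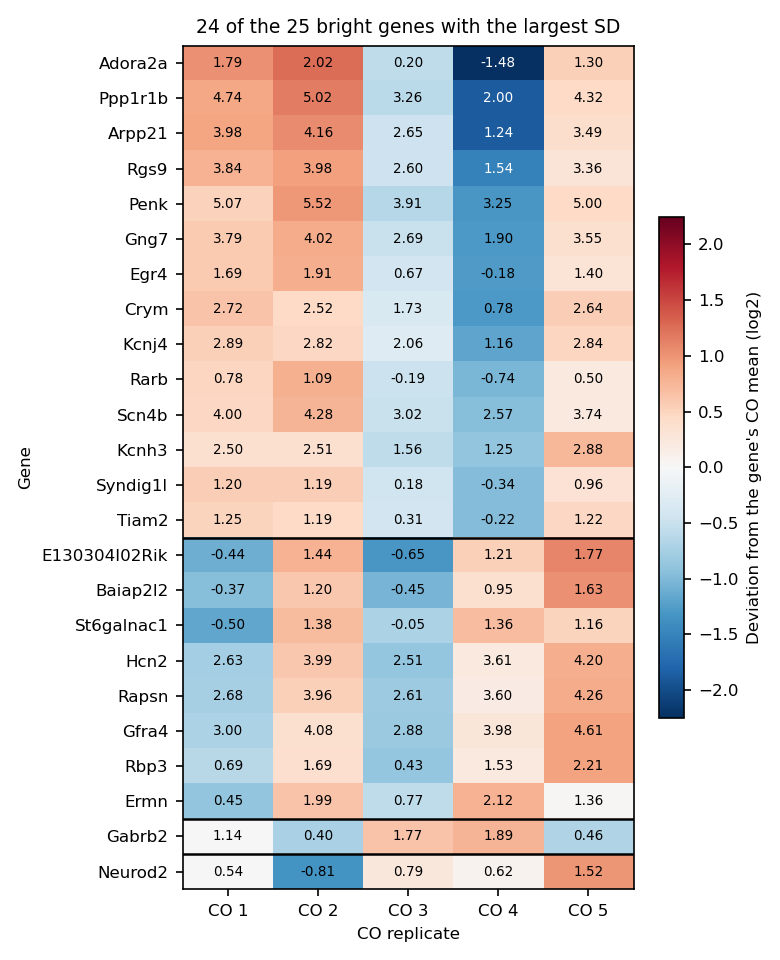
Of the 25 bright genes with the largest SD, 24 (rows) in the 5 CO replicates (columns). Numbers are log2 signal relative to the 75th percentile, colour is the deviation from the CO mean of the gene, and lines separate the genes by the order of their samples: 14 are lowest in replicate 4, 8 are lowest in replicates 1 and 3, and Gabrb2 and Neurod2 each follow another order.

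A second set of variable genes divided the samples otherwise. In 26 of the 76 (34.2%, against 19.4% of all bright genes) replicates 1 and 3 were the lowest pair. E130304I02Rik, an unnamed transcript, gave -0.44, 1.44, -0.65, 1.21 and 1.77. Hcn2, a channel of pacemaker currents, gave 2.63, 3.99, 2.51, 3.61 and 4.20, and Gfra4, a co-receptor of the GDNF family, gave 3.00, 4.08, 2.88, 3.98 and 4.61. Baiap2l2, St6galnac1, Rapsn, Rbp3 and Ermn were the other members among the 25. Rapsn clusters acetylcholine receptors at the muscle synapse and Rbp3 carries retinoids in the retina.

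Other probes of these genes followed them in part only. The second Hcn2 probe, at 1.11, had an SD of 0.12, and the other Gfra4 probes, at -0.06 and -1.76, had SDs of 0.13 and 0.17. The other St6galnac1 probe, at -4.35, had an SD of 0.66 and was, like the first, lowest in replicate 1 and highest in replicate 2. For Ermn, a myelin gene, a second probe at nearly the same level gave 1.36, 0.61, 1.80, 1.43 and 0.80 where the first gave 0.45, 1.99, 0.77, 2.12 and 1.36. Of the 26 genes, 13 had another measured probe. These 15 other probes had a median SD of 0.20, 3 of them exceeded 0.5, and 4 had the same lowest sample as the brightest probe. Of the 28 genes lowest in replicates 4 and 3, only 9 had another measured probe. These 13 other probes had a median SD of 0.50 and 7 exceeded 0.5, but only 5 had the same lowest sample as the brightest probe. All measured probes of named genes had a median SD of 0.16.

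In 12 further genes (15.8%, against 12.9% of all bright genes) replicates 2 and 5 were the lowest pair. Gabrb2, a GABA-A receptor subunit, gave 1.14, 0.40, 1.77, 1.89 and 0.46, and the astrocytic water channel Aqp4 gave 1.98, 1.29, 2.39, 1.87 and 1.01. Chl1, a cell adhesion molecule, the kinase Taok1, and the RNA-binding proteins Bclaf1, Fxr1, Luc7l3 and Ncl belonged to this set. Over the whole astrocyte list, Aqp4 included, the mean deviation lay between -0.06 and 0.04 in every sample. Its members did not all move alike, since Gja1 gave -0.95, -0.02, -0.95, -0.18 and -0.17, and Glul was also lowest in replicates 1 and 3. The orders used here were chosen after the values were seen.

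The remaining 10 variable genes included several of the cortex and hippocampus. Neurod2, a factor of excitatory forebrain neurons, gave 0.54, -0.81, 0.79, 0.62 and 1.52, lowest in replicate 2 and highest in replicate 5, and its SD of 0.85 was 0.45 without replicate 2. Nrgn, a postsynaptic calmodulin-binding protein, and Icam5, an adhesion molecule of telencephalic neurons, reached 3.52 and 3.48 in replicate 5. The cortical and hippocampal list had deviations of -0.01, -0.50, -0.14, -0.07 and 0.72. Of its 14 genes, 12 were highest in replicate 5, where 30.3% of all bright genes were highest. Without replicate 5 the range of this list between samples went from 1.22 to 0.49. With normexp background correction it was 0.73, with replicate 5 still highest but replicate 4 lowest. Only 3 of the 14 were bright, so the share over bright genes is not a like baseline.

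The marker lists of other neighbouring tissue showed smaller deviations. Whether such tissue was in the samples was not tested. The thalamic list was highest in replicate 3 (0.26) and lowest in replicate 5 (-0.36). In replicate 5, 10 of its 13 genes had their lowest value, against 12.4% of all bright genes. Among the thalamic genes Rora gave 1.24, 0.83, 1.70, 1.44 and 0.45, and Prkcd gave 3.15, 2.88, 3.24, 2.91 and 2.19. Choroid plexus genes were highest in replicate 3 (0.33), in 9 of 10 genes, against 23.2% of all bright genes. Both lists also hold genes with means below 0, which these shares of bright genes do not cover. Aqp1 gave -0.90, -0.95, -0.41, -1.29 and -1.36. Meningeal and fibroblast genes were lowest in replicate 2 (-0.28). The range of the thalamic list went from 0.62 to 0.30 without replicate 5, that of the choroid plexus list from 0.55 to 0.29 without replicate 3 and that of the meningeal list from 0.51 to 0.31 without replicate 2. The feeding peptides and the hypothalamic transcription factors each ranged over 0.18 between samples, neurons over 0.13 and astrocytes over 0.10. These ranges depended on the processing, since with normexp background correction the transcription factors ranged over 0.56 and the meningeal list over 0.27, and with scaling to the median the feeding peptides ranged over 0.32 and neurons over 0.22.

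**Figure D5:**
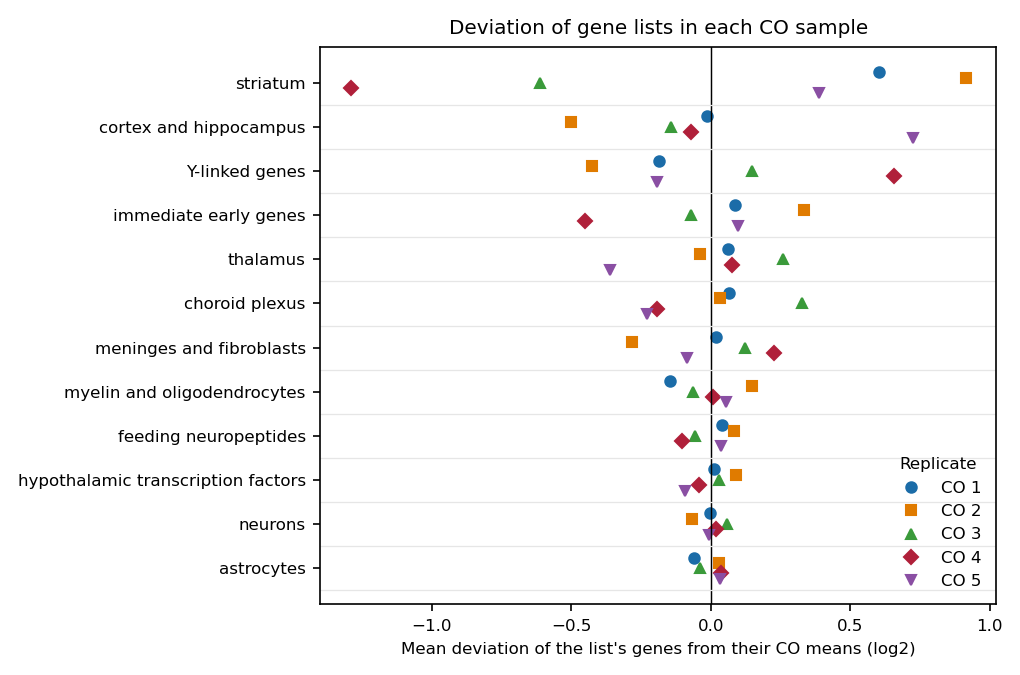
Mean deviation of the measured genes of 12 lists from their CO means (x axis, log2) in each of the 5 CO replicates (symbols). Striatal genes run from -1.29 in replicate 4 to 0.91 in replicate 2, cortical and hippocampal genes reach 0.72 in replicate 5, and hypothalamic transcription factors stay between -0.09 and 0.09.

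Immediate early genes, which neurons switch on when active, also differed between samples. The list deviated by 0.09, 0.33, -0.07, -0.45 and 0.10 in replicates 1 to 5. Of its 16 measured genes, 11 were lowest in replicate 4, where 41.9% of all bright genes were lowest. The list also holds genes with means below 0, which that share does not cover. Egr2 had the widest spread, with -1.24, -1.01, -2.51, -4.04 and -2.16, and Egr1 gave 2.04, 2.63, 1.76, 1.35 and 2.18. Arc, which acts at active synapses, gave 2.03, 2.30, 1.92, 1.67 and 2.38, while Fos, the most used activity marker, gave -0.56, -0.19, -0.46, -1.0 and -1.16 and was lowest in replicate 5. The low value of replicate 4 went together with its low striatal list, and the part of either in the other was not tested. Without replicate 4 the range of the list went from 0.79 to 0.40.

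Genes outside the brain regions gave further values per animal. The 4 Y-linked genes, carried by males, deviated by 0.66 in replicate 4 and by -0.42 in replicate 2, and Ddx3y gave -2.81, -3.44, -1.95, -1.57 and -3.55. Eif2s3y, the brightest of them, gave -0.41, -0.96, -0.85, -0.31 and -0.14, so the 4 did not share an order. Without replicate 4 the range of this list went from 1.08 to 0.57. With normexp background correction it was 0.72, with replicate 2 highest and replicate 1 lowest, so the direction for replicate 2 turned. Sgk1, a kinase induced by glucocorticoids, gave 3.48, 3.30, 3.53, 2.21 and 2.39, lower in replicates 4 and 5 than in the others. Per1, a clock gene that glucocorticoids also induce, gave 4.01, 3.89, 3.92, 3.08 and 3.35, in the same 2 groups of samples. Pdk4, a metabolic kinase of the same list, also divided this way with -2.16, -1.73, -2.14, -2.56 and -2.37. Other genes of the list did not, among them Fkbp5, which gave 1.53, 1.74, 1.16, 1.30 and 1.84, and Tsc22d3, which gave 3.51, 3.81, 3.53, 3.64 and 3.73.

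Replicates 4 and 5 also share a leading number in their sample titles (89, against 65 in replicates 1 to 3), whose meaning the labels do not give. A limma fit over 31112 measured probes, with Benjamini-Hochberg adjustment, found 0 probes (0.0%) that differed between them, with a smallest adjusted p of 0.863. At an unadjusted p under 0.05 there were 1438 probes (4.62%).

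The spread of the variable genes was seen again in part in samples that had not been used to choose them. These HFD arrays were on other slides than the CO arrays. Of their spots, 71.8% to 77.4% were well above background, against 82.5% to 85.7% on the CO arrays. Over the 6 HFD samples the 25 genes had a median SD of 0.53, against 0.10 over all 6750 bright genes, and 15 of the 25 exceeded 0.5, as did 43 (0.637%) of the bright genes. Adora2a had an SD of 1.10 there, Neurod2 of 1.15 and Crym of 0.85. By the order of the CO samples, the 28 genes lowest in replicates 4 and 3 had a median HFD SD of 0.49, the 26 genes lowest in replicates 1 and 3 one of 0.28, and the 12 genes lowest in replicates 2 and 5 one of 0.13, with none of the last set above 0.5. These values are given without a test.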

How the data were processed

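The series holds 11 one-colour Agilent arrays of mouse hypothalamus, and the 5 CO arrays were described here. The authors deposited Feature Extraction scanner files (version 10.7.3.1 per the file headers, 10.8 in the submitters' processing notes), whose processed signal is a background-corrected intensity with no scaling between arrays. The headers name the mm9 design, and no coordinates of probes were used.

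Mouse spots without outlier flags were taken as log2 minus the 75th percentile of the array, and replicate spots of a probe were averaged. In all, 129 probes lacked a value on at least 1 CO array. Probe accessions were matched without versions to RefSeq genes (GRCm38.p6), which named 26369 of 39429 probes and 19987 genes, while 13060 probes stayed unnamed. Of the unnamed probes, 7 were brighter than the 25th gene. For each gene the probe with the highest CO mean was taken. Named were the 25 genes with the highest mean, the 25 bright genes with the largest SD, the 10 with the smallest, up to 4 of the highest and up to 3 of the most variable members of each of 32 gene lists, and the genes the study measured by qPCR. Some genes that the rule names are not reported here. Genes outside that rule that are named here were chosen after their values were seen. The members and lists were chosen with earlier results of these data known.

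Levels, SDs and the deviations of lists are descriptions. The leading title number was tested with limma 3.58.1 in R 4.3.3 (lmFit and eBayes, two-sided, Benjamini-Hochberg adjustment, threshold 0.05), and the script was tested on simulated data. The paper capped the number of offspring analysed per dam, but nothing says which samples share a litter. The p-values of this fit therefore measure only the spread between these samples. The settings varied were the scaling (quantile, median), the background (normexp with an offset of 50), probes averaged per gene, other filters and leaving out each replicate. The normexp alternative used the median spot signal, because the files give no mean spot signal. The number of arrays limits the precision of every value. Tables were made with Python 3.11.15, numpy 2.4.6 and pandas 2.3.3, and figures with matplotlib 3.10.9.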

Additional observations from a re-analysis of the deposited data

Results flagged for a closer look

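Of 90 genes and lists tested for a sample that lies far from the other 4, 5 had such a sample, where chance gives about 1 in 20. That rate is for independent items, whereas genes among these were chosen on the same 5 arrays and share their offsets. The 5 are therefore listed as values and not as more than chance would give. In 4 of them it was replicate 5, which was the highest sample, and all 4 were among the brightest genes. Kctd14 reached 7.79 in replicate 5 against at most 7.35 in the others, Ttc38 7.70 against 7.24, Cpe 7.48 against 7.11 and Milr1 7.41 against 6.89. Replicate 5 was the highest sample for 30.3% of all bright genes. Vtn, one of the 10 steadiest genes, reached 2.72 in replicate 1 against at most 2.69 in the others.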

How the results depend on the processing

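The array's brightest genes depended most on how probes stood for genes. With probes averaged per gene, 9 of the 25 brightest genes were shared and 50 bright genes had an SD above 0.5. With only genes that had 1 measured probe or probes within 2 log2 units, an alternative chosen after seeing the data, 11 of the 25 were shared. The median absolute deviation kept 15 of the 25 most variable genes, and no minimum mean kept 1. Leaving out each replicate in turn kept 24 to 25 of the brightest genes and 15 to 23 of the most variable, with the lowest value without replicate 4. It gave 68 to 104 genes with an SD above 0.5, 16993 to 17085 measured genes and a range of the striatal list of 1.53 to 2.20. Under quantile normalization, scaling to the median, normexp and averaged probes the striatal range was 2.11 to 2.23. The SD of each of the 25 variable genes moved by less than the spread in 225 of 225 alternatives. An SD cannot fall by more than itself, so no fall could fail that rule and the count does not measure stability. With averaged probes the SD was 0.37 for Arpp21, 0.45 for Hcn2, 0.33 for Gfra4 and 0.33 for Ermn. It was 0.45 for Neurod2 without replicate 2 and 0.40 for Kcnj4 without replicate 4. The ranges of 22 other lists moved by less than the spread in 158 of 198 alternatives. For the title number limma called 0 probes at its threshold under each other scaling or background, without the filter on dim probes, and without replicate 1, 2 or 3. Its result still depended on single samples. Without replicate 2, 4153 of 31166 probes had an unadjusted p under 0.05, with a smallest adjusted p of 0.149. Without replicate 1 there were 721 of 31325 such probes, and without replicate 3 there were 754 of 31267. With so few samples, 0 calls do not show that the title numbers are alike. Low probe signals limit what can be read of dim receptors and transcription factors. No paired analysis was possible because a single group was described and replicate numbers pair no samples.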

Other observations

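Stress and clock genes showed modest spread. Of 11 heat shock genes with a named probe 10 were bright, at a median of 4.11, led by Hspa8 (6.53 ± 0.14), and Hsp90aa1 had the largest SD with 4.17, 3.73, 4.40, 4.43 and 3.82 in replicates 1 to 5. The inducible Hspa1a was the dimmest at -0.61 ± 0.28. Of 16 clock genes 7 were bright, with Tef at 5.03 ± 0.16 and Dbp at 3.72 ± 0.17, both transcriptional outputs of the clock, and Cry2 at 3.20 ± 0.08. The core activators Arntl and Clock stood at 0.24 ± 0.09 and -1.38 ± 0.39. Nr1d2 gave -0.20, -0.43, 0.18, 0.41 and -0.63, with replicates 2 and 5 lowest.

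The synaptic genes Prr7, Arc, Egr1, Syt1 and Homer1, chosen as the qPCR targets, deviated by 0.05, 0.22, -0.13, -0.30 and 0.17 in replicates 1 to 5. Prr7 gave 0.57, 0.96, 0.31, 0.49 and 0.93, and Homer1, a postsynaptic scaffold, gave 0.08, 0.08, -0.31, -0.38 and 0.23. Syt1, the calcium sensor of transmitter release, gave 4.43, 4.03, 4.55, 4.25 and 4.04, with replicates 2 and 5 lowest. The metallothioneins Mt1 and Mt2, which bind zinc and are induced by glucocorticoids, were bright and steady at 5.54 ± 0.07 and 5.18 ± 0.06.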
